A study of Arabidopsis thaliana with 8 samples.

Results

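The data described here are the transcript levels of 36 genes of glucosinolate synthesis, transport and breakdown in leaves and shoot apices of Arabidopsis thaliana, out of 33602 genes in the deposited table. The genes were chosen by locus identifier for their known roles, and the rule used no measured value. Even so, they were chosen with earlier results of these data known. By branch they were 18 genes of the aliphatic (methionine-derived) branch, 8 of the indolic (tryptophan-derived) branch, 3 core enzymes that serve both branches, 2 transporters and 5 genes of hydrolysis. Of the 36, 34 reached 1 CPM (read counts scaled to the size of the library) in at least 2 libraries. They were tested beside all 19280 genes that did so. The other two, the indolic regulator MYB122 and the indole hydroxylase CYP81F2, had 5 and 17 reads in all libraries together.

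Wild-type plants of the ecotype Col, 2 weeks old and grown in long days, were either kept in simulated sun or moved to simulated shade, which has a lower ratio of red to far-red light. The move took place 4 hours after lights on, and plants were harvested after 1 hour or 4 hours, so that sun and shade libraries of one time share their time of day. Each of the 4 conditions (1 hour sun, 1 hour shade, 4 hour sun and 4 hour shade) had 2 libraries, each from 5 pooled plants, and roots, hypocotyls and cotyledons had been taken off. The comparison addresses which transcripts of young leaves and apices respond to the light signal of neighbouring plants.

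Glucosinolates are sulfur-containing thioglucosides of the mustard order. Methionine, after rounds of side-chain elongation in the plastid, or tryptophan is converted by cytochromes P450 of the CYP79 and CYP83 families to an activated form that is joined to glutathione, cleaved, glucosylated and sulfated, and R2R3 MYB transcription factors control each branch. When a leaf is damaged, myrosinases stored in separate cells cut off the glucose and yield isothiocyanates, nitriles and related products that deter insects and microbes.

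Libraries held between 1154019 and 4680620 reads on genes, and 4 hour shade replicate 1 was the smallest. There 1 read equalled 0.856 CPM, against 0.216 to 0.291 CPM in the other libraries, and at 10 CPM the counting error alone was 29.3% there and 14.7% to 17.0% elsewhere. The summed level of 4 early shade genes (PIL1, ATHB2, IAA29 and HFR1) was 6.23 to 15.4 CPM in the sun libraries and 25.0 to 144 CPM in the shade libraries, with 4 hour shade replicate 2 the lowest of the latter, and HFR1 was lower in that library (0.872 CPM) than in both 4 hour sun libraries. Leaf mesophyll markers (RBCS1A, CAB3, RCA and CA1) summed to 26435 to 33200 CPM and root hair markers to at most 1.72 CPM, with EXPA7 at 0 in every library. Shoot apex markers summed to 12.5 to 19.8 CPM, and CLV3 had at most 1 read in a library. In such bulk tissue, fewer cells of a type and less RNA per cell cannot be told apart.

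The 36 genes took 0.434% to 0.910% of all CPM, most of it hydrolysis genes. Set against transcript length, the myrosinase TGG1 stood highest, with a median over the libraries of 1187 CPM per kilobase, followed by the second myrosinase TGG2 (660) and ESM1 (324), a modifier of the hydrolysis products. The synthesis enzymes ranged from 107 CPM per kilobase for IIL1 and 96.5 for MAM1 down to 2.38 for MAM3, 1.63 for CYP79F2 and 0.299 for CYP81F2. Among the regulators MYB28 (33.7), MYB29 (18.8) and MYB34 (17.0) lay in the range of the enzymes, while MYB76 (1.16) and MYB51 (1.08) were close to the floor and MYB122 was at 0 in most libraries. Neighbours in this order, such as GTR1 (22.1) and GTR2 (21.8), had overlapping ranges and are not told apart.

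After 4 hours of shade nearly the whole aliphatic branch stood lower than in sun, and 2 of its genes passed the test. In each of 16 of the 18 aliphatic genes both 4 hour shade libraries were below both 4 hour sun libraries, a pattern that 20.9% of all tested genes showed. Fold changes were below 0 for 16 of the 18, and for 53.4% of all genes. The median log2 fold change of the branch was -0.77, against -0.03 over all tested genes. By limma, 13 of the 18 genes were lower at an unadjusted p under 0.05, as were 5.13% of all genes. All were read from the same libraries, so the genes of a branch do not count as independent observations. Summed over the branch, the level was 1579 and 1438 CPM in sun, against 929 and 923 CPM under shade, so that the shade libraries lay near each other and below both sun libraries. At an adjusted p under 0.05 (limma, adjusted over all tested genes), which 0.119% of all genes met in this comparison and 0.0259% met as lower genes, SOT17 and IPMI2 fell. None of the 36 genes was past 0.001 in this limma test, which 0.00519% of all genes met. The study used 0.001 as its threshold but applied it to its own edgeR test, so this share is not that of the study. The count moved with nearly every library. It was 0 without 1 hour sun replicate 2, either 1 hour shade library or either 4 hour sun library, 1 (SOT17) without 4 hour shade replicate 1, and 9 without 4 hour shade replicate 2, where 975 of all 19122 genes tested were called, and it remained 2 without 1 hour sun replicate 1. Each condition had only 2 libraries of pooled plants, with nothing to say that they were grown apart. These p-values therefore rest on the spread between such pools, shared over the 4 conditions and drawn toward that of genes of similar level.

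SOT17 (AT1G18590) encodes a sulfotransferase that adds the sulfate in the last core step, with a preference for aliphatic substrates. It was found at 28.9 and 22.6 CPM in sun at 1 hour (replicates 1 and 2, in this order here and in what follows), 19.3 and 26.7 CPM in shade at 1 hour, 30.4 and 34.7 CPM in sun at 4 hours, and 8.56 and 10.8 CPM in shade at 4 hours. Only the 4 hour shade libraries stood apart, and at 1 hour sun and shade overlapped. At 4 hours the mean was 9.66 ± 1.55 CPM in shade and 32.5 ± 2.99 CPM in sun (SD, n = 2), a 3.37-fold lower level, with a log2 fold change of -1.66 ± 0.24 (SE, limma adjusted p = 0.0182). The level in the smallest library, 8.56 CPM, rested on 10 reads, and without that library the log2 fold change was -1.51 and the gene was still called. Leaving out 1 hour sun replicate 2, either 1 hour shade library or either 4 hour sun library ended the call, with limma adjusted p-values of 0.0527, 0.0510, 0.0547, 0.208 and 0.286 in turn, while the fold change over all such fits stayed between -1.81 and -1.51. The call was also lost with no filter on low values (0.0949) and with only the 4 hour libraries in the limma fit (0.196).

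IPMI2 (AT2G43100) encodes a small subunit of the isopropylmalate isomerase, which moves the hydroxyl group of the growing side chain in methionine elongation. Its levels were 85.9 and 60.8 CPM in sun at 1 hour, 67.1 and 76.7 CPM in shade at 1 hour, 97.9 and 86.9 CPM in sun at 4 hours, and 40.2 and 45.3 CPM in shade at 4 hours. The 4 hour shade libraries were the lowest of the 8, while the 1 hour libraries of sun and shade overlapped. The mean of 42.8 ± 3.60 CPM in shade at 4 hours was 2.16-fold lower than the 92.4 ± 7.79 CPM in sun at 4 hours (SD, n = 2), and the log2 fold change was -1.09 ± 0.18 (SE, limma adjusted p = 0.0384). Its call held without 1 hour sun replicate 1 and without 4 hour shade replicate 2 and was lost without any one of the other libraries, at limma adjusted p-values from 0.0527 without 1 hour sun replicate 2 to 0.571 without 4 hour sun replicate 1. The fold change over these fits was between -1.18 and -1.01, and the call was also lost with no filter (0.137), with a pseudocount of 5 (0.0564) and with only the 4 hour libraries in the limma fit (0.196).

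**Figure D1:**
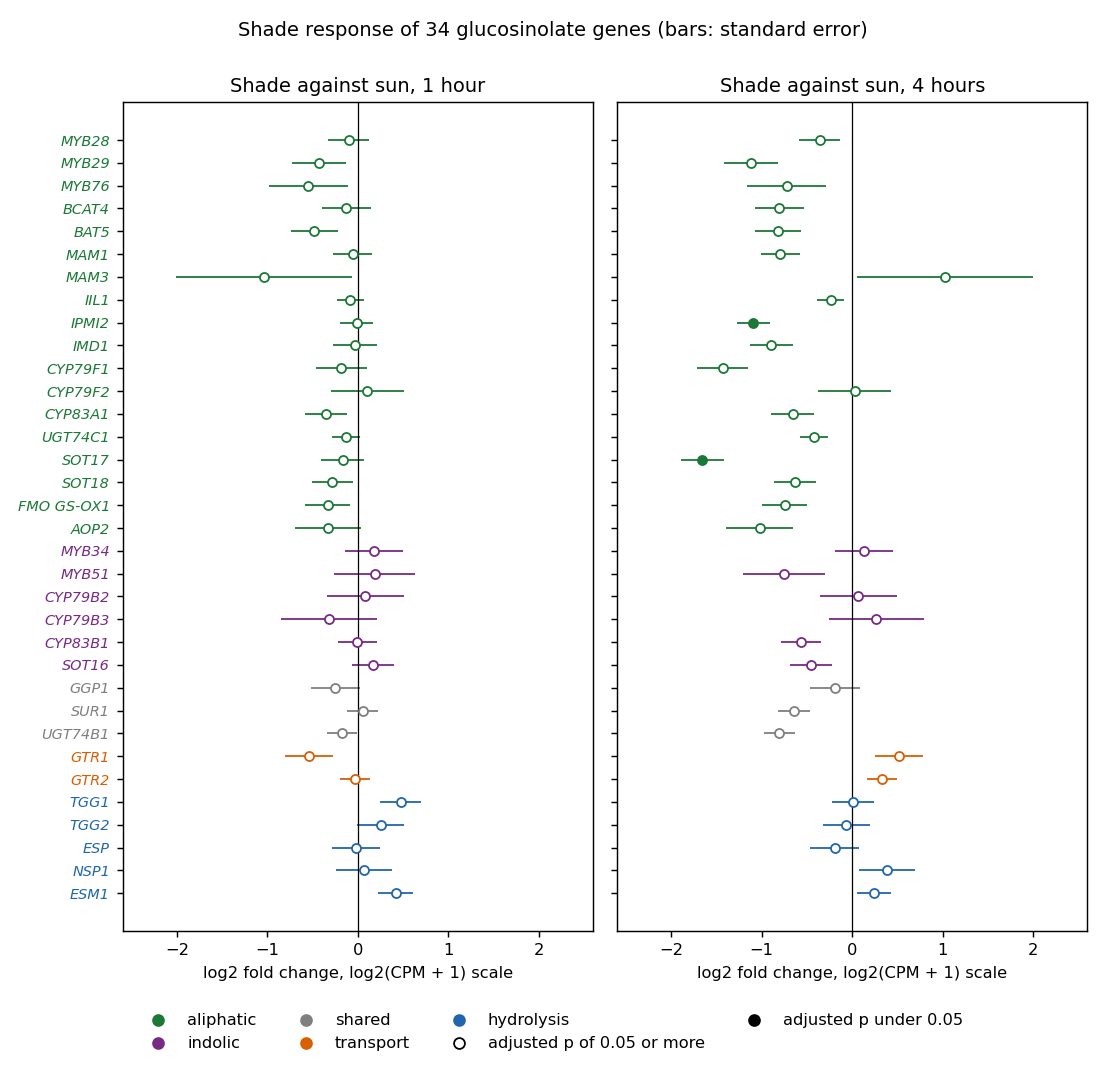
Log2 fold change of shade against sun at 1 hour (left) and 4 hours (right) on the log2(CPM + 1) scale for the 34 tested genes, coloured by branch; bars give the standard error, and filled points have a limma adjusted p under 0.05. At 4 hours 16 of the 18 aliphatic genes lie below 0, MAM3 and CYP79F2 do not, and SOT17 (-1.66) and IPMI2 (-1.09) are filled; no point is filled at 1 hour.

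The stretches of genome just before the starts of SOT17 and IPMI2 are shown because these genes fell, and those of IIL1 and CYP83A1 because they are the 2 aliphatic genes with a G-box there. They are 300 bases up to the annotated start, cut back to the end of the neighbouring gene for SOT17 and IPMI2, from the RefSeq assembly TAIR10.1. SOT17 lies on the plus strand of chromosome 1 (6398531 to 6400029) and its stretch is chr1:6398275-6398530; IPMI2 lies on the plus strand of chromosome 2 (17920647 to 17921844) with chr2:17920497-17920646. IIL1 (AT4G13430), the large subunit of the same isomerase, has chr4:7807985-7808284 and CYP83A1 (AT4G13770), the aliphatic P450 after CYP79F1, has chr4:7992430-7992729, both on the minus strand and printed from 5′ to 3′ of the gene. Capitals mark CACGTG, the G-box to which phytochrome interacting factors bind, and ACCAAC on either strand, letters found in AC elements, to which R2R3 MYB proteins bind.
SOT17: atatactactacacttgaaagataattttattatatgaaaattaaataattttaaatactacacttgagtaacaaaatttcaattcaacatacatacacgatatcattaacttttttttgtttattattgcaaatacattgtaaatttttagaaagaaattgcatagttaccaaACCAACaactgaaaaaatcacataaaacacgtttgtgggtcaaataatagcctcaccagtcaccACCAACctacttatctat
IPMI2: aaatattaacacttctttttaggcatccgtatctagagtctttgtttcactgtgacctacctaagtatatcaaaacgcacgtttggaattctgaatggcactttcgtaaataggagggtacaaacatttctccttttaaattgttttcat
IIL1: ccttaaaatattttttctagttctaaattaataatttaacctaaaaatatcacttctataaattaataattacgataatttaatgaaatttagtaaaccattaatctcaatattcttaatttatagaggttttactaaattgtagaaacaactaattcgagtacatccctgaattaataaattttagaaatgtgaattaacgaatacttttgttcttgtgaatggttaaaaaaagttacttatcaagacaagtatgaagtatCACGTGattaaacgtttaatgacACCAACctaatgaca
CYP83A1: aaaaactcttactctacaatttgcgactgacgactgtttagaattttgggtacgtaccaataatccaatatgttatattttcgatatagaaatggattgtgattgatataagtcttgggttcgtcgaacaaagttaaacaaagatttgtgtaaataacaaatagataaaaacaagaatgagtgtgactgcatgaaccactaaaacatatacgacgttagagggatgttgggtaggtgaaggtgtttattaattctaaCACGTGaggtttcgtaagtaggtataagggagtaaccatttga

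SOT17 held ACCAAC at 82 and 18 bases before its start and no G-box, IPMI2 held neither, IIL1 held a G-box at 38 bases and ACCAAC at 15 bases, and CYP83A1 held a G-box at 43 bases. Over windows of 300 bases, the G-box stood in 3 of the 36 genes (IIL1, CYP83A1 and the shared gene SUR1; 8.33%) against 6.44% of 32834 genes. A related box of the same factors, CACATG, stood in 4 of 36 (11.1%) against 12.8%, and in AOP2 and FMO GS-OX1 alone among the aliphatic genes. ACCAAC, a search added after the windows had been read, was found in 9 of 36 windows (25.0%) against 13.9% of all: in BAT5, IIL1, CYP79F2, SOT17, AOP2, CYP79B2, CYP79B3, SOT16 and UGT74B1. All letters were sought on both strands, and the 3 words do not overlap each other in these windows. The shares of the G-box and of CACATG are close to the background.

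Of the aliphatic regulators, MYB28 is the main activator, with MYB29 and MYB76 as partners. MYB29 (AT5G07690) was at 31.1 and 36.6 CPM in sun at 1 hour, 18.0 and 33.9 CPM in shade at 1 hour, 36.4 and 40.8 CPM in sun at 4 hours and 12.8 and 23.0 CPM in shade at 4 hours, a log2 fold change of -1.12 ± 0.30 at 4 hours (SE, limma adjusted p = 0.242). MYB28 (AT5G61420) read 40.8 and 65.6, 39.4 and 58.9, 91.1 and 82.9, and 62.5 and 73.0 CPM in the same order of conditions, and its fold change at 4 hours was -0.36 ± 0.23 (SE, limma adjusted p = 0.723). MYB76 (AT5G07700), at 3.98 and 1.40, 1.30 and 1.44, 3.97 and 3.09, and 1.71 and 1.74 CPM, had only 2 reads in the smallest library. For each of these regulators both 4 hour shade libraries were below both 4 hour sun libraries, but none passed the test, and at 1 hour their sun and shade libraries overlapped. Without 4 hour shade replicate 2, MYB29 was called, at -1.51 (limma adjusted p = 0.00836), and without replicate 1 its value was -0.72.

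CYP79F1 and CYP79F2 make the aldoximes with which the aliphatic core pathway begins, and they lie 1183 bases apart on chromosome 1. CYP79F1 (AT1G16410) was at 136 and 73.7 CPM in sun at 1 hour, 65.3 and 119 CPM in shade at 1 hour, 150 and 124 CPM in sun at 4 hours, and 49.7 and 49.99 CPM in shade at 4 hours. Its 4 hour shade libraries were the lowest of all and agreed closely, while the 1 hour replicates of each condition were far apart. The log2 fold change at 4 hours was -1.43 ± 0.28 (SE, limma adjusted p = 0.0856), and among fits that left out 1 library it was called only without 4 hour shade replicate 2 (-1.44, limma adjusted p = 0.0175). CYP79F2 (AT1G16400), in contrast, had 3.24 and 3.35, 3.24 and 4.02, 1.98 and 4.51, and 2.57 and 3.78 CPM, with overlap at both times and a log2 fold change of 0.03 ± 0.41 at 4 hours. Stretches of 40 bases, the read length, that occur in both genes make up 2.64% of CYP79F1 and 4.35% of CYP79F2, so few reads could be split between them.

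**Figure D2:**
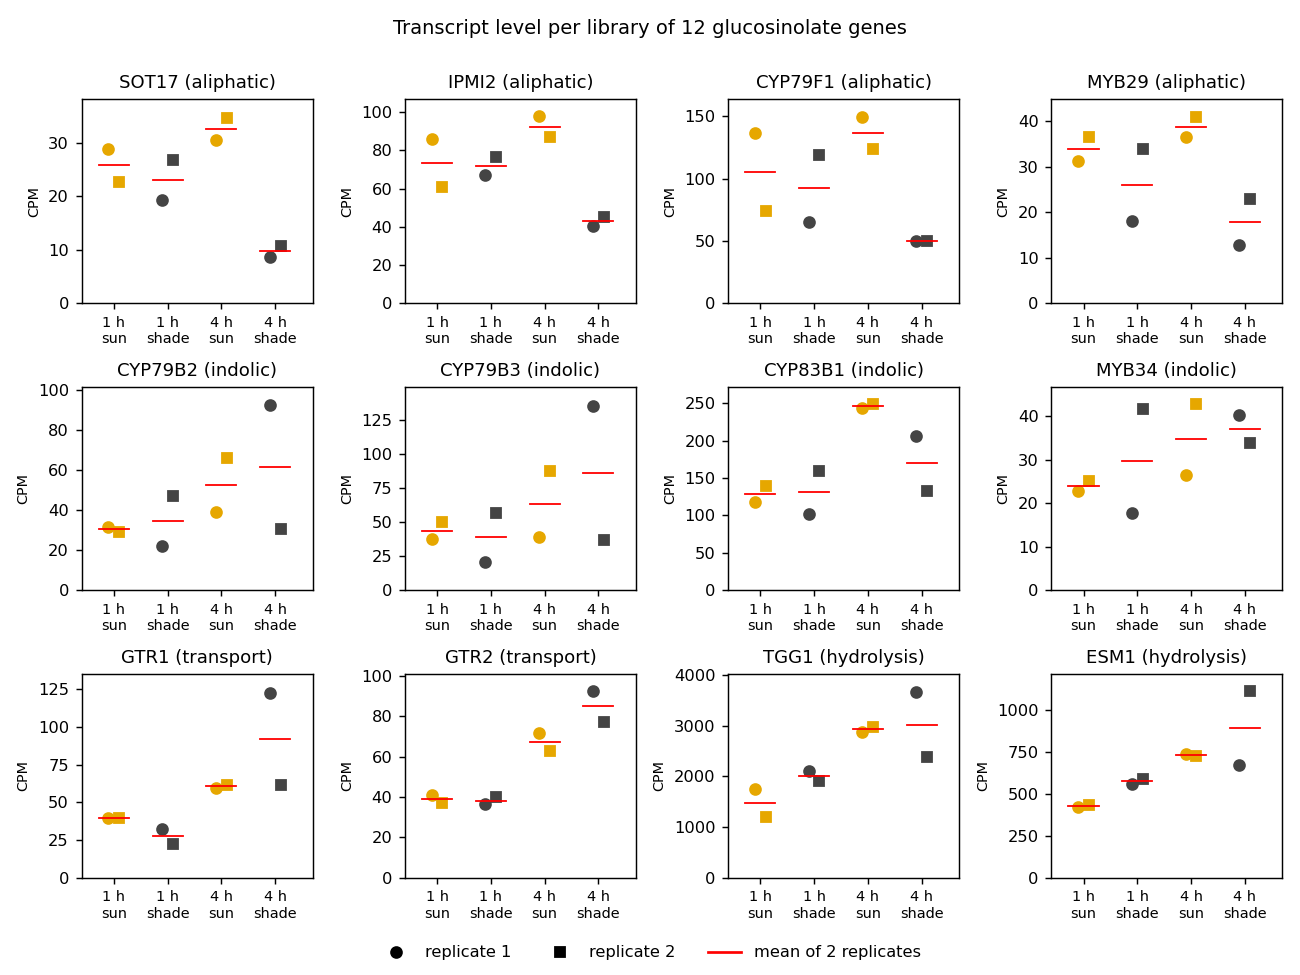
CPM of 12 genes in each library by condition (orange, sun; dark, shade; circles, replicate 1; squares, replicate 2), with a red line at the mean of 2 replicates. In the upper row SOT17, IPMI2, CYP79F1 and MYB29 have their lowest means in 4 hour shade; in the middle row the indolic genes CYP79B2 and CYP79B3 differ mostly between replicates; in the lower row GTR1, GTR2, TGG1 and ESM1 stand higher at 4 hours.

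The remaining aliphatic genes kept the same order at 4 hours without passing the test. In side-chain elongation, the aminotransferase BCAT4, the plastid keto acid carrier BAT5, the chain-extending synthase MAM1, IIL1 and the dehydrogenase IMD1 had log2 fold changes of -0.80, -0.82, -0.80, -0.24 and -0.89. Among core enzymes, CYP83A1, the glucosyltransferase UGT74C1 and the sulfotransferase SOT18 stood at -0.66, -0.42 and -0.63. The side-chain modifiers FMO GS-OX1, an S-oxygenase, and AOP2, which makes alkenyl side chains in other ecotypes and is not functional in Col, stood at -0.74 and -1.02. MAM3, the second chain-extending synthase, was the exception beside CYP79F2, at 1.02 ± 0.97 (SE), and its values within conditions were far apart (11.9 and 0.237 CPM in sun at 4 hours, 13.7 and 3.49 CPM in shade at 4 hours). BCAT4, UGT74C1 and IMD1 share 19.0%, 14.2% and 9.63% of their 40-base stretches with other genes, BCAT4 and UGT74C1 mostly with overlapping ones, and their values are less certain for that reason.

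At 1 hour of shade no glucosinolate gene was called, where 0.472% of all tested genes were. By limma 1 of the 34 had an unadjusted p under 0.05 (ESM1), as had 6.73% of all genes, and edgeR and DESeq2 called none. Of the aliphatic genes 17 of 18 had fold changes below 0, as had 50.0% of all genes, but the median was -0.17 and only BAT5 and FMO GS-OX1 had shade libraries wholly below sun, which 18.5% of all genes did. BAT5 (AT4G12030) was at 41.6 and 34.9 CPM in sun at 1 hour and 22.1 and 33.1 CPM in shade at 1 hour (log2 fold change -0.48 ± 0.26, SE, limma adjusted p = 0.792), and at 37.5 and 29.2 CPM against 14.6 and 23.0 CPM at 4 hours. This pattern rested on single libraries: the number below 0 was 7 of 18 without 1 hour shade replicate 1 and 9 of 18 without 1 hour sun replicate 1, and the median was 0.05 and -0.01 then, and -0.41 without 1 hour sun replicate 2.

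Whether the response differed between the times was tested as the difference of both shade contrasts. No glucosinolate gene passed (limma; 2 of all 19280 tested genes did, 0.0104%), 8 of 34 had an unadjusted p under 0.05, as had 5.51% of all genes, and edgeR and DESeq2 called none. The largest differences among aliphatic genes with such a p were those of SOT17, -1.49 ± 0.34 (limma adjusted p = 0.380), CYP79F1, -1.25 ± 0.39 (0.806), and IPMI2, -1.08 ± 0.26 (0.447). Without 4 hour shade replicate 2, SOT17, IPMI2 and GTR1 passed, at limma adjusted p-values of 0.0283, 0.0420 and 0.0136. Averaged over both times, SOT17 alone of the 34 fell in shade, by 0.91 ± 0.17 on the log2 scale (SE, limma adjusted p = 0.0213; 0.628% of all genes were called), and both 1 hour and 4 hour values enter this mean although its libraries overlapped at 1 hour. That call was lost without 1 hour sun replicate 1 or 2, 1 hour shade replicate 1 or either 4 hour sun library, at limma adjusted p-values of 0.187, 0.0590, 0.131, 0.106 and 0.180 in turn, and with no filter (0.0774).

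The indolic branch was less uniform than the aliphatic one, in a way that rested on single libraries. At 4 hours the median log2 fold change of its 6 tested genes was -0.19, with 3 genes above and 3 below 0, and 2 had shade libraries wholly below sun (MYB51 and CYP83B1), as had 20.9% of all genes. Without 4 hour sun replicate 1 all 6 genes were below 0, with a median of -0.34, and without 4 hour shade replicate 1 it was 5 of 6, with a median of -0.69, whereas without 4 hour sun replicate 2 the median was 0.13. At 1 hour the median was 0.13 and no gene had shade libraries wholly below sun, against 18.5% of all genes. The summed level was 259 and 290 CPM in sun at 1 hour, 206 and 371 CPM in shade at 1 hour, 399 and 516 CPM in sun at 4 hours, and 524 and 271 CPM in shade at 4 hours. At each time the shade replicates lay on either side of both sun libraries, and the difference between the branches was not tested.

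CYP79B2 and CYP79B3 convert tryptophan to indole-3-acetaldoxime, which also feeds camalexin and auxin synthesis. CYP79B2 (AT4G39950) was at 31.6 and 29.3 CPM in sun at 1 hour, 22.1 and 47.1 CPM in shade at 1 hour, 39.0 and 66.2 CPM in sun at 4 hours and 92.5 and 30.5 CPM in shade at 4 hours. CYP79B3 (AT2G22330) followed with 37.6 and 50.2, 21.0 and 56.9, 39.0 and 87.4, and 135 and 36.6 CPM. Both were highest in 4 hour shade replicate 1 and lowest in 1 hour shade replicate 1, and their fold changes at 4 hours, 0.07 ± 0.43 and 0.27 ± 0.53 (SE), were smaller than their standard errors. Sun and shade libraries overlapped at both times.

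MYB34, MYB51 and MYB122 activate the indolic branch. MYB34 (AT5G60890) was found at 22.9 and 25.1 CPM in sun at 1 hour, 17.7 and 41.7 CPM in shade at 1 hour, 26.5 and 43.0 CPM in sun at 4 hours, and 40.2 and 34.0 CPM in shade at 4 hours, with overlap at both times. MYB51 (AT1G18570), which lies 7144 bases from SOT17 on chromosome 1, had 2.24 and 1.12, 1.95 and 2.01, 3.97 and 1.90, and 1.71 and 0.872 CPM. Its 4 hour shade libraries were below both sun libraries (-0.75 ± 0.45, SE, limma adjusted p = 0.700), but they held only 2 and 3 reads. MYB122 (AT1G74080) had 2 reads in 1 hour sun replicate 1 and in 4 hour shade replicate 1, 1 read in 4 hour sun replicate 2 and none in the other 5 libraries, where a count of 0 allows up to 0.649 to 0.872 CPM by counting error alone. CYP81F2, which hydroxylates the indole ring after attack, had 0 to 4 reads in each library.

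CYP83B1 (AT4G31500), the P450 that follows CYP79B2 and CYP79B3, was at 118 and 139 CPM in sun at 1 hour, 102 and 160 CPM in shade at 1 hour, 243 and 249 CPM in sun at 4 hours, and 206 and 133 CPM in shade at 4 hours. It stood lower in shade at 4 hours (-0.57 ± 0.22, SE, limma adjusted p = 0.485) and in sun rose from 1 hour to 4 hours by 0.94 ± 0.22 on the log2 scale, 1.92-fold (limma adjusted p = 0.0332). That call was lost without any one of the 4 sun libraries, at limma adjusted p-values from 0.162 (1 hour sun replicate 2) to 0.245 (4 hour sun replicate 2), with values of 0.82 to 1.05, and also with no filter (0.104) and with median ratio rescaling (0.0513). The indolic sulfotransferase SOT16, whose gene is 151 bases from the aliphatic SOT18 on chromosome 1, was at -0.45 ± 0.23 at 4 hours (SE, limma adjusted p = 0.648).

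Genes that respond to jasmonate varied between replicates as the indolic entry enzymes did at 4 hours. The summed level of 9 such genes (VSP1, VSP2, LOX2, AOS, AOC1, OPR3, JAZ1, JAZ5 and JAZ10) was 1178 and 336 CPM in sun at 1 hour, 302 and 322 CPM in shade at 1 hour, 678 and 1544 CPM in sun at 4 hours, and 2584 and 548 CPM in shade at 4 hours. It was high in one replicate of each condition but 1 hour shade, and the 2 highest libraries were also the 2 highest for CYP79B2 and CYP79B3, whereas 1 hour sun replicate 1 was high in the jasmonate genes and not in these. The aliphatic sums were 1579 and 1438 CPM in sun and 929 and 923 CPM under shade at 4 hours. The part of jasmonate in the indolic and in the aliphatic values was not tested. Sulfur deficiency genes, which rise when sulfur is short, summed to 15.8 to 39.4 CPM and were highest in the same 4 hour shade replicate 1.

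**Figure D3:**
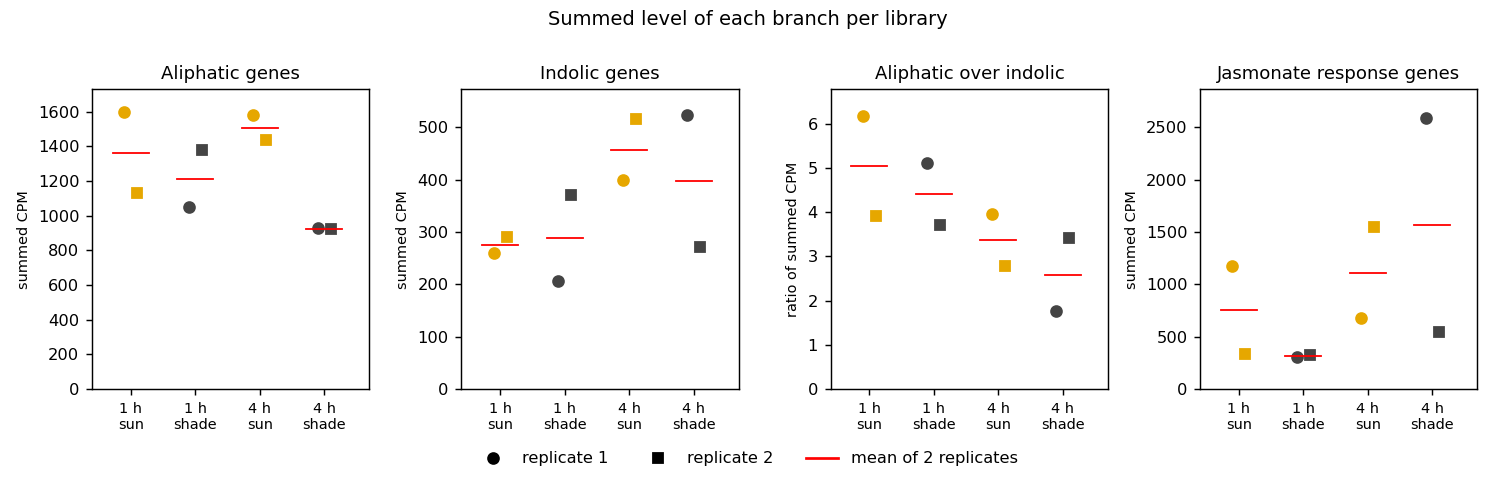
Summed CPM per library of the 18 aliphatic and 8 indolic genes, the ratio of the sums, and the summed CPM of 9 jasmonate response genes (orange, sun; dark, shade; circles, replicate 1; squares, replicate 2; red line, mean of 2 replicates). The aliphatic sums in 4 hour shade (929 and 923 CPM) coincide below the others, while the indolic and jasmonate sums of the same libraries are far apart.

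The ratio of the aliphatic to the indolic sum was 6.17 and 3.90 in 1 hour sun, 5.10 and 3.71 in 1 hour shade, 3.96 and 2.79 in 4 hour sun, and 1.77 and 3.40 in 4 hour shade. Sun and shade overlapped at both times, so the lower aliphatic level at 4 hours did not appear as a ratio apart from the spread between replicates. The lowest ratio was that of 4 hour shade replicate 1, with the highest indolic sum (524 CPM).

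Of the 3 core enzymes that serve both branches, SUR1, the C-S lyase, and the glucosyltransferase UGT74B1 had 4 hour shade libraries wholly below sun, and GGP1, which trims the glutathione conjugate, did not. UGT74B1 (AT1G24100) was at 89.7 and 69.2 CPM in sun at 1 hour, 63.8 and 76.4 CPM in shade at 1 hour, 96.2 and 96.6 CPM in sun at 4 hours, and 57.4 and 52.3 CPM in shade at 4 hours. The 4 hour libraries of sun and of shade each agreed closely, with a log2 fold change of -0.80 ± 0.17 (SE, limma adjusted p = 0.113); without 4 hour shade replicate 2 it was called at -0.74 (limma adjusted p = 0.0325). SUR1 was at -0.64 ± 0.17 (SE, limma adjusted p = 0.244) and GGP1 at -0.19 ± 0.27 (SE, limma adjusted p = 0.895).

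The transporters GTR1 and GTR2, which load glucosinolates into the phloem, stood higher, not lower, in shade at 4 hours. GTR1 (AT3G47960) was at 39.6 and 39.6 CPM in sun at 1 hour, 32.4 and 22.4 CPM in shade at 1 hour, 59.5 and 61.5 CPM in sun at 4 hours, and 122 and 61.6 CPM in shade at 4 hours. Both shade libraries were below sun at 1 hour (-0.54 ± 0.26, SE, limma adjusted p = 0.770) and above sun at 4 hours (0.52 ± 0.26, SE, limma adjusted p = 0.638), where replicate 2 barely exceeded sun and 16.9% of all genes had shade libraries wholly above sun. Without 4 hour shade replicate 1 the 4 hour value was 0.03, and without replicate 2 it was 1.01 (limma adjusted p = 0.0125). GTR2 (AT5G62680), at 41.1 and 37.1, 36.6 and 39.9, 71.7 and 62.7, and 92.5 and 77.3 CPM, did not differ beyond its spread at 1 hour and was at 0.33 ± 0.16 at 4 hours (SE, limma adjusted p = 0.627). In GTR1, 13.8% of 40-base stretches also occur in other genes, mostly in one that overlaps it.

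Transporter levels were higher at 4 hours than at 1 hour. In shade GTR1 rose 3.36-fold, by 1.65 ± 0.26 on the log2 scale (SE, limma adjusted p = 0.00389), and GTR2 rose 2.22-fold, by 1.13 ± 0.16 (SE, limma adjusted p = 0.00219), where 3.76% of all genes were called. In sun GTR2 rose by 0.76 ± 0.16 (SE, limma adjusted p = 0.0227), with 3.58% of all genes called, and GTR1 stood at 0.60 ± 0.26 (SE, limma adjusted p = 0.255). The call of GTR1 in shade was lost without 1 hour shade replicate 2 (1.39, limma adjusted p = 0.0799) and that of GTR2 in shade held without any single library. GTR2 in sun lost its call without any one of the 4 sun libraries, at limma adjusted p-values from 0.0995 (1 hour sun replicate 1) to 0.282 (4 hour sun replicate 1).

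None of the 5 hydrolysis genes passed the test for shade at either time. TGG1 (AT5G26000) was at 1747 and 1193 CPM in sun at 1 hour, 2112 and 1902 CPM in shade at 1 hour, 2880 and 2978 CPM in sun at 4 hours, and 3672 and 2374 CPM in shade at 4 hours. ESM1 (AT3G14210) was at 424 and 435, 558 and 591, 739 and 727, and 674 and 1113 CPM in the same order. At 1 hour both genes had shade libraries wholly above sun, as 19.5% of all genes did (0.47 ± 0.23 and 0.42 ± 0.19, SE, limma adjusted p = 0.763 and 0.742), and at 4 hours sun lay between the shade replicates. The specifier proteins ESP and NSP1, which turn the products to nitriles, stood at -0.20 ± 0.27 and 0.39 ± 0.31 at 4 hours, and 31.5% of the 40-base stretches of NSP1 occur in other genes, most in its neighbour NSP4.

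In sun all 5 hydrolysis genes had 4 hour libraries wholly above 1 hour libraries, as did 33.0% of all genes and 18 of the 34. TGG1 rose 1.99-fold, by 1.02 ± 0.23 on the log2 scale (SE, limma adjusted p = 0.0281), and ESM1 1.71-fold, by 0.77 ± 0.19 (SE, limma adjusted p = 0.0439). TGG2, at 1.00 ± 0.26, missed the threshold (limma adjusted p = 0.0512). TGG2 was called with edgeR, a minimum of 5 CPM, the replicate block or only the sun libraries in the fit, and not with DESeq2. TGG1 lost its call without any one sun library, at limma adjusted p-values from 0.0535 (1 hour sun replicate 1) to 0.313 (1 hour sun replicate 2), and its value without the latter was 0.75. ESM1 lost it without any one sun or 1 hour shade library, at 0.0694 to 0.297. With no filter both lost it (0.121 and 0.126), and ESM1 did so with median ratio rescaling (0.0661). The guard and myrosin cell markers (FAMA, MYB60, SLAC1, HT1 and TMM) summed to 77.2 and 79.3 CPM in sun at 1 hour and 96.4 and 98.5 CPM in sun at 4 hours, and 3 of the 5 had 4 hour libraries wholly above and 1 wholly below. FAMA, the regulator of myrosin cells, was at 21.4 and 20.4 against 34.0 and 36.3 CPM, and TMM, the most abundant of them, at 38.4 and 45.2 against 36.4 and 37.0 CPM. In 4 hour shade FAMA was at 44.5 and 17.7 CPM and TGG1 at 3672 and 2374 CPM. The part of these cells in the myrosinase levels was not tested.

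From 1 hour to 4 hours, 6 of the 18 aliphatic genes had log2 changes below 0 in sun (33.3%, against 43.2% of all genes). In shade 14 of the 18 did (77.8%, against 47.0% of all genes). Without 1 hour sun replicate 2, 11 of the 18 were below 0 in sun. For the difference between sun and shade, no glucosinolate gene passed the test above. In sun the median log2 change from 1 hour to 4 hours was 0.26 in the aliphatic and 0.51 in the indolic branch, against 0.07 over all genes, and no glucosinolate gene was called lower. In shade it was -0.37 in the aliphatic and 0.40 in the indolic branch, against 0.03. The aliphatic medians rested on single libraries in part, with -0.10 in sun without 1 hour sun replicate 2 and -0.07 in shade without 1 hour shade replicate 2. In shade 7 of the 34 genes had 4 hour libraries wholly above and 8 wholly below 1 hour libraries, as did 25.3% and 20.7% of all genes. SOT17 fell in shade by 1.16 ± 0.24 on the log2 scale (2.38-fold lower; SE, limma adjusted p = 0.0178) and IPMI2 by 0.73 ± 0.18 (1.68-fold lower; SE, limma adjusted p = 0.0412). SOT17 lost this call without 1 hour shade replicate 2 or 4 hour shade replicate 1 (limma adjusted p = 0.165 and 0.0515), and IPMI2 without either 1 hour shade library, either 4 hour sun library or 4 hour shade replicate 1, at limma adjusted p-values from 0.0816 to 0.229. With only the shade libraries in the fit both calls were lost (0.110 and 0.123), and that of IPMI2 also with no filter (0.0833). The comparisons of sun with shade and of 4 hours with 1 hour share libraries, so they are not independent of each other.

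**Figure D4:**
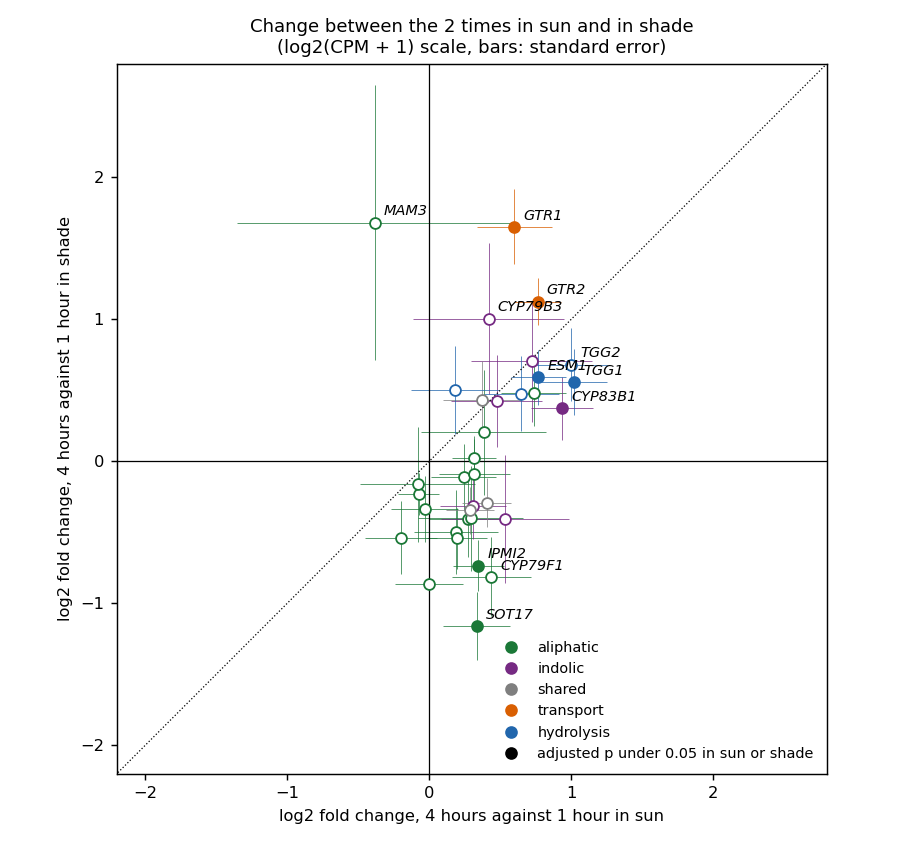
Log2 change from 1 hour to 4 hours in sun (horizontal) and in shade (vertical) on the log2(CPM + 1) scale for the 34 tested genes, coloured by branch, with standard errors as bars; filled points have a limma adjusted p under 0.05 in sun or in shade, and the dotted line marks equal change. GTR1 and GTR2 lie above the line, and most aliphatic genes, with SOT17 (-1.16 in shade) lowest, lie below it.

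Of 39 further genes of the pathway, chosen for their known roles with earlier results of these data known, 29 were tested. At 4 hours of shade 20 of them had fold changes below 0 (53.4% of all genes), with a median of -0.14 (-0.03 over all genes), and 11 had shade libraries wholly below sun (20.9% of all genes). Among them 1 gene fell, IPMI1, another small subunit of the isopropylmalate isomerase. It was at 54.8 and 51.1 CPM in sun at 1 hour, 25.7 and 52.3 CPM in shade at 1 hour, 70.3 and 62.4 CPM in sun at 4 hours and 19.7 and 25.0 CPM in shade at 4 hours. Its log2 fold change was -1.54 ± 0.26 at 4 hours (SE, limma adjusted p = 0.0433) and -1.03 ± 0.18 over both times (SE, limma adjusted p = 0.0176). The 4 hour call was lost without either 1 hour sun library (limma adjusted p = 0.109 for both), either 4 hour sun library (0.529 and 0.307) or 4 hour shade replicate 1 (0.0744), and the call over both times without any library but the 4 hour shade ones and 1 hour shade replicate 2, at 0.0517 to 0.151. The former was also lost with a pseudocount of 5 (0.0564), no filter (0.185) and only the 4 hour libraries (0.138), and the latter with no filter (0.107). The small subunits IPMI1 and IPMI2 and the large subunit IIL1 thus all had their lowest levels in 4 hour shade. IIL1 was at 192 and 199 CPM there, against 215 to 274 CPM in the other libraries. Its log2 fold change at 4 hours was -0.24, and a difference between the subunits was not tested.

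Outside shade, PEN2 and PEN3 rose in sun from 1 hour to 4 hours. PEN2, an atypical myrosinase that cleaves indolic glucosinolates in living cells, went from 77.5 and 63.4 CPM to 116 and 114 CPM (0.71 ± 0.18, SE, limma adjusted p = 0.0478). PEN3, an exporter that acts in the same defence, went from 283 and 265 CPM to 470 and 492 CPM (0.81 ± 0.17, SE, limma adjusted p = 0.0207). BCAT3, a plastid aminotransferase that takes part in elongation, fell in shade from 181 and 171 CPM to 114 and 125 CPM, by 0.56 ± 0.14 (SE, limma adjusted p = 0.0451). Leaving out any one sun library ended the call of PEN3 (0.110 to 0.222), either 1 hour shade library or any sun library that of PEN2 (0.0727 to 0.361), and any library but 4 hour shade replicate 2 that of BCAT3 (0.0652 to 0.166). PEN2 also lost its call with a pseudocount of 0.25 (0.0515), no filter (0.102), quantile normalization (0.0759), median ratio rescaling (0.0793), edgeR (0.0510) and DESeq2 (0.0607), PEN3 with no filter (0.0685), and BCAT3 with no filter (0.0755) and with only the shade libraries (0.178).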

How the data were processed

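The deposited table gave CPM (read counts scaled to library size) per gene for 8 libraries. The authors made it by mapping 40-base reads with TopHat to TAIR10. The read counter and its treatment of strand and of reads that map to several genes are not given in the sources used here. All values above 0 (100%) were whole multiples of what 1 read is worth, within 0.01 reads, so reads were recovered from the CPM. What 1 read was worth differed slightly from the value set by the recovered read total, so CPM followed an adjusted library size. The adjustment is not described in the sources used here. The study tested with edgeR; since the values are CPM, log2(CPM + 1) was tested here with limma 3.58.1 (R 4.3.3) in 1 model of 4 conditions with a trended prior, for genes with at least 1 CPM in 2 libraries, and p-values were adjusted by Benjamini-Hochberg over all tested genes. Fold changes of low genes are understated on this scale, and fold values are ratios of mean CPM. Alternatives were other pseudocounts, filters, scalings, fewer libraries, a replicate block, and edgeR 4.0.16 and DESeq2 1.42.0 on the recovered reads. The scripts were tested on simulated data. Values in every library are given for genes called in any comparison, for the gene with the largest non-overlapping difference of each branch, and for MYB and CYP79 genes; other genes shown in full were chosen after their values were seen. Members and lists were chosen with earlier results of these data known. The table held 0 unused columns of samples. Names, positions and upstream sequences came from RefSeq (TAIR10.1). Figures were drawn with matplotlib 3.10.9 in Python 3.11.15.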

Additional observations from a re-analysis of the deposited data

Results flagged for a closer look

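GTR1 stood out because its shade difference had opposite directions at the 2 times. Both shade libraries were below both sun libraries at 1 hour (32.4 and 22.4 against 39.6 and 39.6 CPM) and above them at 4 hours (122 and 61.6 against 59.5 and 61.5 CPM). The difference between the log2 fold changes was 1.05 ± 0.37 (SE), with a limma adjusted p of 0.810, so it missed the threshold. Such opposite non-overlapping patterns occurred in 1028 of 19280 tested genes (5.33%). Without 4 hour shade replicate 1 the difference was 0.56 (limma adjusted p = 0.605), and without 4 hour shade replicate 2 it was 1.54 (limma adjusted p = 0.0136).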

How the results depend on the processing

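No value that was called in either setting changed its direction. Of the values under alternatives other than leaving out a library, 1431 kept their direction and call, 27 lost and 8 gained a call and 30 counts or medians moved; among fits without 1 library the numbers were 1096, 69, 33 and 50. The number of glucosinolate genes called at 4 hours (2) was 1 with a pseudocount of 5 and 0 with no filter, with only the libraries of the comparison or at a threshold of 0.001, and 0 to 9 without 1 library. Over both times (1) it was 0 with no filter or at 0.001, and 0 to 8. For the change of the shade response (0) it was 0 to 3 without 1 library. From 1 hour to 4 hours in sun (4) it was 1 with no filter, 2 with median ratio rescaling and 5 with edgeR or a minimum of 5 CPM. With only the libraries of the comparison it was 10, and at 0.001 it was 0. The sun count also moved when 1 library was left out. From 1 hour to 4 hours in shade the count was 3 with no filter and 5 with edgeR or the replicate block. It was 6 with quantile normalization or DESeq2. In shade (4) it was 2 with only those libraries and 0 at 0.001, and 1 to 14. At 1 hour it was 0 in every fit run. The aliphatic median without 1 library was -0.66 to -0.22 for the change of the shade response, -0.10 to 0.39 over time in sun and -0.63 to -0.074 over time in shade. The cause of these shifts was not tested.

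Alternatives for the further pathway genes were chosen after seeing the data. Their number called at 1 hour (0) was 1 with only the libraries of the comparison. At 4 hours (1) it was 0 with a pseudocount of 5, with no filter or with only those libraries, and 0 to 6 without 1 library. Over both times (1) it was 0 with no filter, and 0 to 3, and for the change of the response (0) it was 0 to 1. Over time in sun (2) it was 1 with a pseudocount of 0.25, quantile normalization, median ratio rescaling, edgeR or DESeq2, 0 with no filter and 9 with only those libraries, and 0 to 7. Over time in shade (1) it was 0 with no filter, 3 with a minimum of 5 CPM, edgeR or DESeq2, 2 with median ratio rescaling and 4 with the replicate block, and 0 to 15.

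Same-numbered libraries did not deviate together (correlations of -0.06 to 0.10), so replicates were not paired. With the replicate block 2 glucosinolate genes were called at 4 hours, 1 over both times, and 5 over time both in sun and in shade. A condition left with 1 library was assumed to vary like the others. The depth of 4 hour shade replicate 1 limits genes under 10 CPM, such as MYB76, MYB51 and CYP79F2, and counting intervals cover counting error only.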

Other observations

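Of the further pathway genes, CYP81F4 and IGMT5, which hydroxylate and methylate the indole ring at its nitrogen, had levels that differed widely between replicates. CYP81F4 was at 40.3 and 28.2 CPM in sun at 1 hour, 9.95 and 18.4 CPM in shade at 1 hour, 21.4 and 96.6 CPM in sun at 4 hours, and 149 and 36.04 CPM in shade at 4 hours. IGMT5 was at 54.0 and 26.8, 19.7 and 19.5, 50.5 and 125, and 118 and 32.0 CPM. For both genes the 3 libraries with the highest jasmonate sums were the highest of their own condition pair. MYC2, a regulator of jasmonate responses, was at 98.6 and 66.1, 41.5 and 63.5, 60.4 and 124, and 115 and 55.5 CPM. None of these genes passed the test in any comparison, and they were chosen after their values were seen.

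NSP5, a nitrile specifier, was at 57.3 and 42.7, 58.6 and 42.8, 55.8 and 62.9, and 183 and 68.6 CPM, with 4 hour shade replicate 1 far above the rest. AOP3 and the root myrosinases TGG4 and TGG5 had 0 reads in every library.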
